A study of Citrullus lanatus with 30 samples.

Results

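Ripe flesh of watermelon fruit, labelled RF (30 DAP), was compared with the youngest stage of the same series, labelled PD (0 DAP), to describe the net change in transcript levels over fruit development and how far each transcript pool was concentrated in few loci. The comparison used the 3 RF and the 3 PD libraries, 6 of the 30 in the series, chosen by their titles. Libraries of both groups came from fruit of Citrullus lanatus subsp. vulgaris cv. 97103, carry flesh as their tissue label, and are listed with no treatment. DAP is usually read as days after pollination, which the labels do not spell out, and a fruit of that first age is in general terms an ovary. The other stages of the same flesh were AP (1 DAP), SW (5 DAP), BW (10 DAP) and CT (20 DAP), with 3 libraries each. The labels do not say whether the 3 libraries of a stage came from separate fruits, so each p-value below refers to variation among libraries, which could be technical alone.

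A watermelon ovary is a small green organ of dividing cells around its ovules. After fruit set cell division goes on for some days and gives way to cell enlargement, and at ripening the flesh is known to accumulate sugars and, in red cultivars, the carotenoid lycopene, while chloroplast functions and the thickness of the cell walls decline. Levels were deposited as FPKM, fragments per kilobase of transcript scaled to library size, so they compare loci per length and state each transcript as a part of its library, not as an amount per cell. In bulk tissue, fewer cells of a type and less RNA per cell cannot be told apart.

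Values were listed for 22596 loci on 11 chromosomes and 23 scaffolds, named by coordinates on the sequences with the prefix WM97pbV1. Loci are written here by chromosome, start and end on those sequences. What each locus encodes, and whether a position is exonic or intronic, was not analysed here, so the tissue label could not be checked against marker genes. Summed FPKM lay between 797712 and 805032 in RF and between 799515 and 813023 in PD. Libraries of the same group correlated at 0.994 to 0.995 in RF and at 0.991 to 0.992 in PD on the log2(FPKM + 1) scale across the loci tested, where loci are not independent replicates. Read totals are unknown. Relative depth was estimated from loci under 0.3 FPKM in both of 2 libraries, as the most common ratio of their values. Values there are taken as whole multiples of what 1 fragment is worth. Between RF replicate 1 and PD replicates 1 to 3, only 25 of 337, 39 of 360 and 28 of 375 such loci lay at that ratio. By that measure PD replicates 1, 2 and 3 held 0.747, 0.830 and 0.842 times as many fragments as RF replicate 1, and RF replicates 2 and 3 held 0.945 and 0.881 times as many.

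The RF pool was more concentrated than the PD pool. The 10 highest loci of a library held 10.4%, 10.6% and 10.9% of summed FPKM in RF replicates 1 to 3, against 6.15%, 6.03% and 5.92% in PD replicates 1 to 3. The groups did not overlap. The top 100 loci held 26.6 ± 0.18% in RF and 21.6 ± 0.19% in PD (SD, n = 3 each), and the top 1000 held 58.6 ± 0.13% in RF and 55.2 ± 0.25% in PD. The gap was thus 4.62 percentage points at 10 loci, 5.02 at 100 and 3.41 at 1000. Its size depends on few loci, since without the highest locus of each library these gaps were 2.05, 2.91 and 2.23 points. The gap at 10 loci was 1.43 points with FPKM multiplied by span. Over the loci outside the moved part of PD replicate 3 it was 2.29 points at 10 loci and 2.11 at 100. To reach 50% of summed FPKM took 604 ± 5.57 loci in RF and 726 ± 12.7 loci in PD. To reach 90% took 5550 ± 16.5 loci in RF and 6786 ± 30.9 loci in PD.

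Measures over the whole pool gave the same order. The effective number of loci, the number of equally abundant loci with the same Shannon entropy, was 3083 ± 36.9 in RF and 4227 ± 46.9 in PD, a ratio of 0.729. The Gini coefficient, which is 0 when every locus is equal, was 0.841 ± 0.00059 in RF and 0.806 ± 0.0012 in PD. The highest locus of a library held 3.84 ± 0.13% in RF and 1.04 ± 0.05% in PD, a direction that turned with FPKM multiplied by span (1.00% in RF and 1.42% in PD). With FPKM as deposited the RF and PD libraries did not overlap for each of 8 such measures, and an exact two-sided permutation test gave p = 0.1 (adjusted p = 0.1 over the 8), which is the smallest p that 3 against 3 allows. Fewer loci were also detected in RF, where 14251 to 14278 loci per library reached 1 FPKM, against 16111 to 16149 in PD. Between 4871 and 5008 loci per library were listed at 0 in RF and between 3884 and 3979 in PD. By the estimate of relative depth, which rests on few loci, each RF library was deeper than each PD library.

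**Figure D1:**
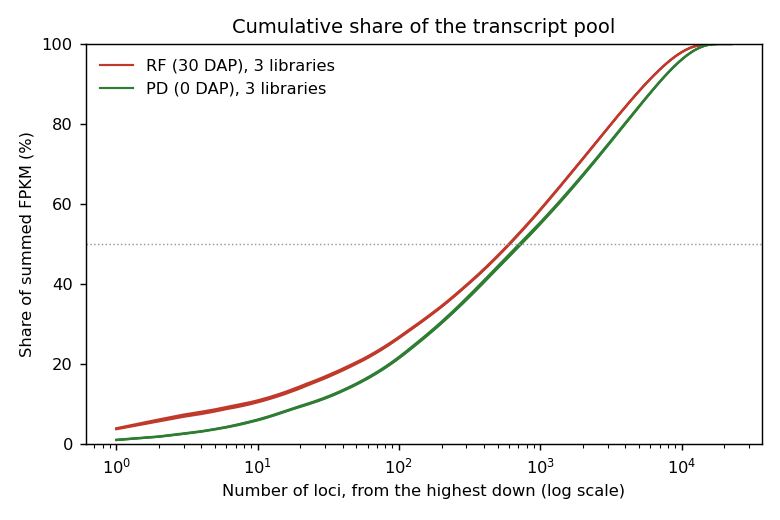
Share of summed FPKM (%, vertical axis) held by the loci from the highest down (number of loci, log scale), with 1 line per library for RF (red) and PD (green). The RF lines lie above the PD lines at the counts given in the text, with 10.4% to 10.9% in the top 10 loci in RF and 5.92% to 6.15% in PD, and the lines cross 50% (dotted) near 604 and 726 loci.

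RF was less concentrated than BW and CT by the top 10 share and the effective number of loci. Against BW the order was reversed for the Gini coefficient (0.841 in RF, 0.831 in BW). It was also reversed for the loci that reach 90% of summed FPKM (5550 in RF, 6067 in BW). From 0 to 30 DAP the top 10 loci held 6.03 ± 0.11% in PD, 7.80 ± 0.26% in AP, 9.57 ± 0.22% in SW, 15.3 ± 0.37% in BW, 19.9 ± 2.34% in CT and 10.7 ± 0.26% in RF (SD, n = 3 each). The effective number of loci was 4227 in PD, 3941 in AP, 3897 in SW, 2790 in BW, 1781 in CT and 3083 in RF. The net change between the end points was thus smaller than the change up to CT. That order rests on CT alone at 20 DAP, since Mock flesh of the same age was less concentrated than RF, with 8.19 ± 0.28% in the top 10 loci and 3674 effective loci (n = 3, values written in another number format). Within CT, replicate 3 held 17.3% in its top 10 loci and replicates 1 and 2 held 21.0% and 21.6%. The highest locus alone made up most of these shares, with 8.77% in replicate 3 and 12.7% and 12.8% in replicates 1 and 2. In BW the highest locus held 4.24 ± 0.12% and in RF 3.84 ± 0.13%. The order of the stages without the highest locus was not computed. The values of these stages stand without a test.

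**Figure D2:**
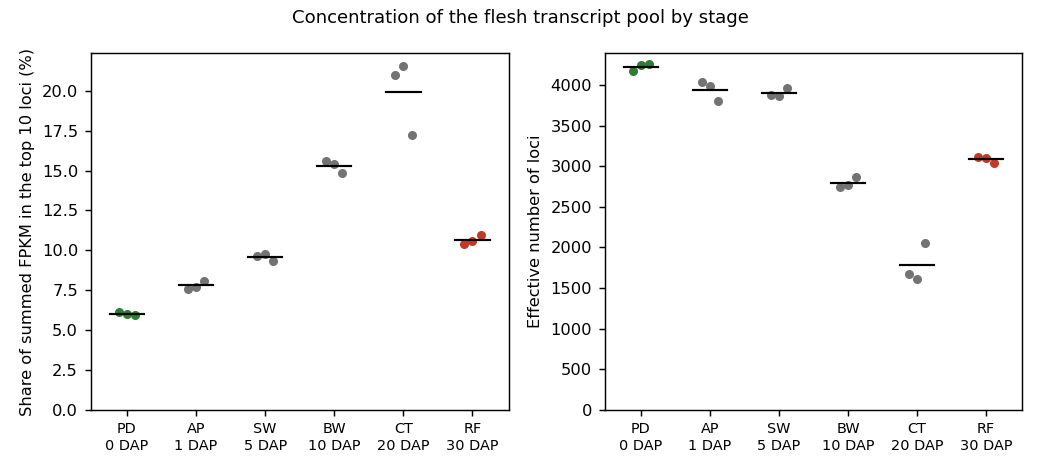
Share of summed FPKM in the top 10 loci (%, left) and effective number of loci (right) for the 6 flesh stages in order of age, with 1 point per library and the mean as a bar. The RF libraries (red) lie at 10.4% to 10.9%, between the PD libraries (green) at 5.92% to 6.15% and the CT libraries at 17.3% to 21.6%.

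A single short locus led the RF pool. At chr8:4243307-4243756, which spans 450 bases, the level was 29869, 30607 and 31730 FPKM in RF replicates 1 to 3, against 20.1, 25.2 and 31.6 FPKM in PD. That is 3.84% of summed FPKM in RF and 0.0032% in PD, and a log2 fold change of 10.20 ± 0.15 (SE, limma adjusted p = 6.29e-09). Its rank was 1 in RF and 5762 in PD. Over the stages with values by locus, which leave out AP, means rose at each step, with 100.5 FPKM in SW, 12280 FPKM in BW and 23218 FPKM in CT. Mock flesh of the same age as CT was lower than BW, at 7708 ± 1060 FPKM (SD, n = 3, values written in another number format).

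Other leaders of ripe flesh came up at different times. The locus at chr10:21559312-21559608 had 9372, 9502 and 9779 FPKM in RF, against 15.4, 16.3 and 44.5 FPKM in PD (log2 fold change 8.67 ± 0.39 SE, limma adjusted p = 1.21e-06). Its rank was 3 in RF, with 1.19% of the pool, after it had reached 99167 ± 18578 FPKM in CT (SD, n = 3). That height was seen in CT alone, since Mock flesh of the same age was at 13106 ± 240 FPKM (SD, n = 3, values written in another number format). The locus at chr9:3600867-3601073 spans 207 bases and had 5078, 4770 and 4825 FPKM in RF, against 21.5, 13.2 and 26.0 FPKM in PD (log2 fold change 7.90 ± 0.23 SE, limma adjusted p = 1.24e-07). The mean was 64.0 FPKM in BW and 875 FPKM in CT, so most of its net rise in FPKM came after 20 DAP, although on the log2 scale it was past the middle of that rise by CT. In these 3 loci the lowest RF library was over 100 times the highest PD library.

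Both remaining leaders of the RF pool were also leaders of the PD pool. The locus at chr1:14395071-14396092 ranked second in each, with 15724, 16496 and 17510 FPKM in RF, against 6769, 6621 and 6609 FPKM in PD (log2 fold change 1.31 ± 0.04 SE, limma adjusted p = 6.50e-08). This locus held 2.07% of the pool in RF and 0.827% in PD, and its highest stage mean was 29771 FPKM in BW. The locus at chr5:5830958-5832520 had 5524, 5423 and 5663 FPKM in RF, against 6114, 5846 and 5767 FPKM in PD. Its fold change was close to 1 (log2 fold change -0.09 ± 0.03 SE, limma adjusted p = 0.0190). That direction depends on scaling, since with median-of-ratios scaling, which sets the typical ratio between libraries to 1, the log2 fold change was 0.20 (limma adjusted p = 0.00057). The call was lost without RF replicate 2 (limma adjusted p = 0.0661), with limma run without trend and robust options (adjusted p = 0.0630) and with sums set equal without the 100 highest loci (adjusted p = 0.739).

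The 3 PD leaders outside that pair fell to low levels in ripe flesh by different routes. The first-ranked locus of PD, chr2:2337240-2337639, had 6.69, 3.91 and 7.48 FPKM in RF, against 8936, 8142 and 8140 FPKM in PD (log2 fold change -10.26 ± 0.20 SE, limma adjusted p = 2.17e-08). This locus held 1.04% of the PD pool and ranked 10625 in RF. The locus at chr6:7824799-7825077 had 48.3, 48.0 and 51.2 FPKM in RF, against 4492, 4707 and 4451 FPKM in PD (log2 fold change -6.50 ± 0.04 SE, limma adjusted p = 1.07e-10). Most of that fall was in place in SW, at 105 FPKM. The locus at chr9:8994585-8996097 had 14.5, 15.4 and 13.8 FPKM in RF, against 4405, 4678 and 4373 FPKM in PD (log2 fold change -8.17 ± 0.04 SE, limma adjusted p = 1.11e-10). Its level was higher in SW (6109 FPKM) than in PD, and its mean was 3091 FPKM in BW and 355 FPKM in CT.

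**Figure D3:**
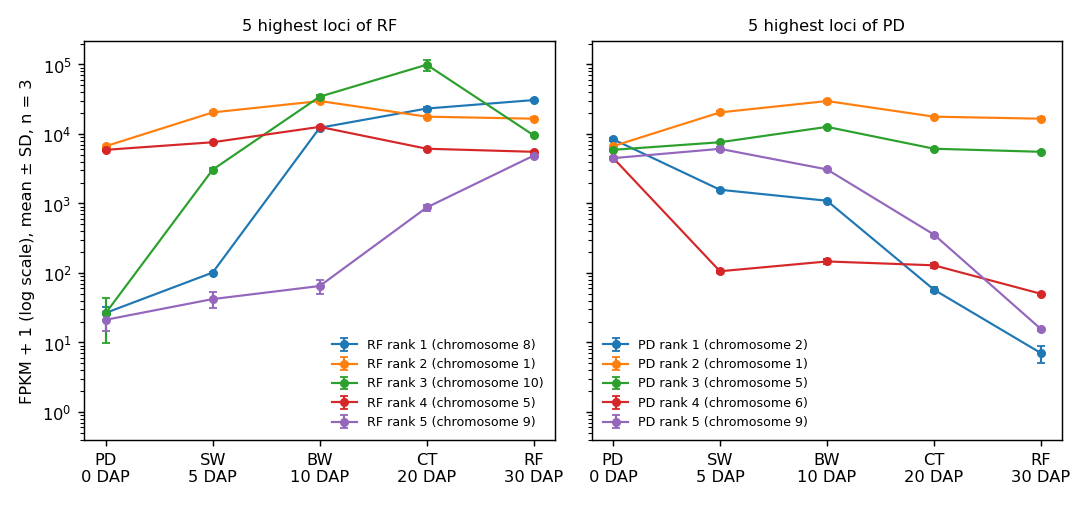
Level (FPKM + 1, log scale, mean ± SD, n = 3) of the 5 highest loci of RF (left) and of PD (right) at 5 flesh stages in order of age. The loci ranked 2 and 4 in RF are those ranked 2 and 3 in PD and have no stage mean under 5000 FPKM, while the loci ranked 1, 3 and 5 in RF start between 20.2 and 25.6 FPKM in PD.

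The 2 pools shared few of their leading loci. Of the 10 highest loci by group mean, 2 were common to both, and of the 100 highest, 19 were (19.0% of each list). Of the 1000 highest, 479 were common (47.9% of each list). The 100 highest loci of RF held 26.6% of the pool in RF and 8.75 ± 0.05% in PD, and 11 of them averaged under 10 FPKM in PD. The 100 highest loci of PD held 9.41 ± 0.08% in RF and 21.6% in PD (SD, n = 3), and 9 of them averaged under 10 FPKM in RF. These lists were chosen by level in one of the groups, so a difference in the other group is in part built in, and no test was made on them.

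Along the stages the leading loci of each end were exchanged. The RF leading 100 held 8.75% in PD, 12.7% in SW, 22.6% in BW, 32.1 ± 1.56% in CT and 26.6% in RF. The height of CT in this series leans on 1 member, chr10:21559312-21559608, the highest locus of the CT libraries. The highest locus held 11.4 ± 2.31% of the pool in CT (SD, n = 3), while this member held 1.19% in RF. Shares of the list without it were not computed. The PD leading 100 held 21.6% in PD, 19.0% in SW, 16.4% in BW, 9.98 ± 0.57% in CT and 9.41% in RF. Of the RF leading 100, 59 had their highest stage mean in RF, 22 in CT and 8 in BW, and 8 had it in PD. Of the PD leading 100, 75 had their highest stage mean in PD and 14 in SW, and 3 had it in RF.

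To turn the mean PD profile into the mean RF profile, 47.9% of the pool had to pass between loci. Single RF and PD libraries differed by 47.7% to 48.2% over the 9 pairs, while RF libraries differed from each other by 2.20% to 2.56% and PD libraries by 2.17% to 2.51%. Share was gained by 8049 loci and lost by 11991. The gain was carried by fewer loci than the loss, with 148 loci making up 50% of the gain and 287 loci making up 50% of the loss. The 10 loci that gained most took up 9.35 percentage points of the pool, and the 10 that lost most gave up 4.77 points. Successive stage means differed by 25.9% for SW against PD, 21.6% for BW against SW, 26.1% for CT against BW and 21.0% for RF against CT. By the nature of this measure the steps cannot sum to less than the net difference. CT differed from PD by 47.5%, nearly as much as RF did. The differences that involve CT include a large part from 1 locus, chr10:21559312-21559608, the highest of CT. The highest locus held 11.4 ± 2.31% of the pool in CT (SD, n = 3), while this locus held 0.0032% in PD and 1.19% in RF.

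Nearly every locus tested had a net difference. Of 16598 loci with at least 1 FPKM in 3 of the 6 libraries, 14923 (89.9%) passed the threshold (limma on log2(FPKM + 1), adjusted p under 0.05), 6034 higher in RF (36.4%) and 8889 lower in RF (53.6%). At 90.6% of the loci tested the RF and PD libraries did not overlap. With a change of at least 2-fold, 3131 loci were higher in RF (18.9%) and 5539 were lower (33.4%). Falls outnumbered rises at each size of change counted, with 1290 higher and 2693 lower at 4-fold or more, 280 higher and 718 lower at 16-fold or more, 79 higher and 150 lower at 64-fold or more, and 15 higher and 31 lower at 256-fold or more.

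The excess of falls lay among loci of low and middle level. Of 6141 tested loci with a mean under 10 FPKM over the RF and PD libraries, 14.2% were at least 2-fold higher in RF and 42.1% at least 2-fold lower. At 10 to 100 FPKM these shares were 20.1% and 27.9% of 8985 loci. At 100 to 1000 FPKM the counts were nearly equal, 419 higher and 423 lower of 1404 loci. At 1000 FPKM and over rises outnumbered falls, with 30 higher and 21 lower of 68 loci.

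That excess rests in part on how the libraries are scaled. The median log2 fold change of the loci tested was -0.32 with FPKM as deposited and -0.05 with median-of-ratios scaling, a shift of 0.27. With that scaling 7210 loci were higher and 7690 lower, and 3909 and 4700 with at least a 2-fold change, so that rises made up 45.4% of the 2-fold calls in place of 36.1%. Replicates varied little beside such changes, with a median SD of 3.40% of the mean in RF and 3.51% in PD over loci averaging at least 10 FPKM.

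**Figure D4:**
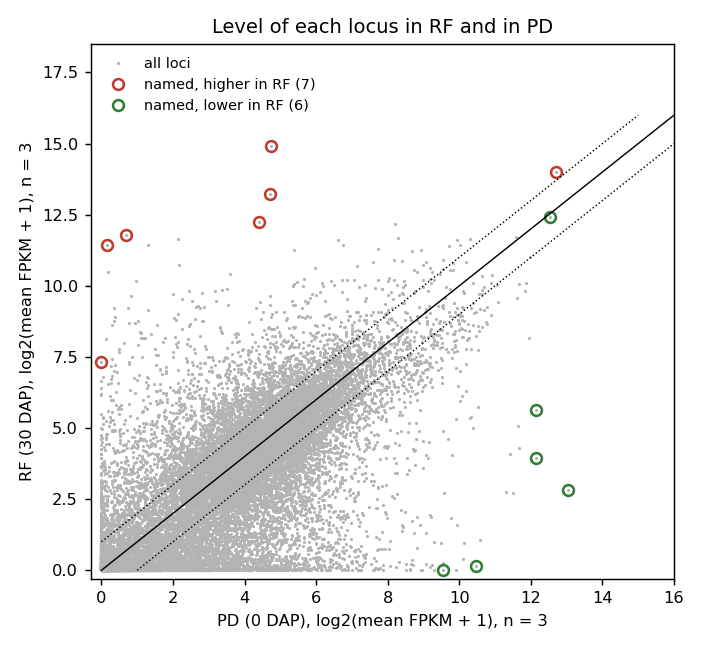
Level of each of the 22596 loci in RF (vertical) and in PD (horizontal) as log2(mean FPKM + 1) of 3 libraries each, with the line of equal level and dotted lines at 2-fold. Circles mark the 13 named loci, 7 higher in RF (red) and 6 lower in RF (green), of which 1 lies close to the line of equal level.

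The loci with the largest net rise were all but silent at 0 DAP. This is in part built in, since ranking by change in log2(FPKM + 1) favours loci with a low PD level. At chr7:3768191-3777136, a long locus of 8946 bases, the level was 2821, 2796 and 2772 FPKM in RF, against 0.144, 0.037 and 0.182 FPKM in PD (log2 fold change 11.29 ± 0.05 SE, limma adjusted p = 8.76e-11). The mean was still 3.14 FPKM in BW and reached 957 FPKM in CT. At chr5:7789664-7791009 the level was 3488, 3627 and 3594 FPKM in RF, against 0.550, 0.418 and 0.897 FPKM in PD (log2 fold change 11.12 ± 0.10 SE, limma adjusted p = 7.62e-10). This locus rose earlier, with 40.3 FPKM in SW, 113 FPKM in BW and 4027 FPKM in CT, above its level in RF.

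The loci with the largest net fall were among the most abundant at 0 DAP. This is built into the ranking, since a fall in log2(FPKM + 1) cannot exceed the PD level. One was the leader of the PD pool on chromosome 2 described above. The other, chr4:1035656-1036636, had 0.076, 0.20 and 0.043 FPKM in RF, against 1421, 1428 and 1397 FPKM in PD (log2 fold change -10.32 ± 0.05 SE, limma adjusted p = 1.05e-10). The fall was stepwise, with 83.5 FPKM in SW, 9.47 FPKM in BW and 0.874 FPKM in CT. It ranked 40 in PD and 17109 in RF.

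More loci were listed at 0 in RF alone than in PD alone. Of all 22596 loci, 4045 were listed at 0 in each RF library and 3142 in each PD library. Falls also outnumbered rises over all loci tested, as given above. In RF 104 loci were listed at 0 in each library while they averaged at least 10 FPKM in PD, and the reverse held for 23 loci. The locus with the highest PD mean among those listed at 0 in RF, chr9:35679816-35680079, was listed at 0 in the 3 RF libraries, against 717, 711 and 810 FPKM in PD (limma adjusted p = 1.35e-10). It was at 9.90 FPKM in SW and listed at 0 in BW. The locus with the highest RF mean among those listed at 0 in PD, chr11:6094723-6095184, had 162, 145 and 165 FPKM in RF (limma adjusted p = 3.43e-10). It was at 3.41 FPKM in CT, so along the stages most of that rise, in FPKM and on the log2 scale, followed CT. That timing rests on CT alone, since Mock flesh of the same age, 20 DAP, was at 107 ± 4.98 FPKM (SD, n = 3, values written in another number format). No fold change is given against a group listed at 0.

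Among loci detected at 0 DAP, those at 10 to 100 FPKM most often kept their range. Of 8861 loci in that range in PD, 5538 (62.5%) were in it in RF, 613 were above it and 2710 were below it. Of 1313 loci at 100 to 1000 FPKM in PD, 630 stayed in that range in RF, 41 were above 1000 FPKM and 642 were lower. Of 85 loci at 1000 FPKM or more in PD, 14 (16.5%) were at that level in RF. The number of loci at that level was nevertheless alike, 78 in RF and 85 in PD, and they held 24.1% of the pool in RF and 19.8% in PD. In RF 2 loci exceeded 10000 FPKM and together held 5.91% of the pool, and in PD no locus did. Within 2-fold were 7897 of the tested loci (47.6%).

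In 12 stretches of at least 4 consecutive loci each locus changed at least 4-fold in the same direction, 2 higher in RF and 10 lower. They held 8 of the 1290 loci higher by at least 4-fold and 43 of the 2693 lower. Of all loci, 5.71% were higher by that much and 11.9% were lower. How many such stretches these shares alone would give was not tested. The stretch that stood out, chosen after its values were seen, was chr9:6696701-6718620 with 4 loci. Their summed level was 1573, 1581 and 1587 FPKM in RF, against 0.115, 0 and 0.350 FPKM in PD. It was 3.74 FPKM in SW, 9.54 FPKM in BW and 1474 FPKM in CT, so the stretch came up between 10 and 20 DAP. One of its loci, chr9:6712106-6712850, accounted for most of that sum, with 1429, 1448 and 1455 FPKM in RF, against 0.115, 0 and 0.307 FPKM in PD. The first locus of the stretch, chr9:6696701-6696916, had 105, 96.4 and 93.8 FPKM in RF and was listed at 0 in the 3 PD libraries. The remaining loci averaged 25.2 FPKM (chr9:6699378-6701444) and 12.5 FPKM (chr9:6714937-6718620) in RF.

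Among the fallen stretches, chr11:6019084-6053549 held the highest summed level at 0 DAP. Its 4 loci summed to 136, 126 and 127 FPKM in RF, against 2167, 2130 and 2175 FPKM in PD. The sum was 863 FPKM in SW, 228 FPKM in BW and 148 FPKM in CT. A further stretch, chr6:7330466-7393947, was close to silent in ripe flesh, with 0.095, 0.150 and 0.018 FPKM in RF, against 130, 132 and 133 FPKM in PD. It was at 147 FPKM in SW and 1.05 FPKM in CT. Whether neighbouring loci share reads or are copies of each other was not tested.

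The net change was spread over the chromosomes. Per chromosome, 15.9% to 21.0% of the tested loci were at least 2-fold higher in RF and 27.9% to 35.7% at least 2-fold lower, beside 18.9% and 33.4% over all loci. The lowest share of falls, 27.9%, and the highest share of rises, 21.0%, were both on chromosome 9. The pool itself shifted more unevenly. Chromosome 8 held 10.3 ± 0.11% of summed FPKM in RF and 7.46 ± 0.01% in PD (SD, n = 3 each), but 6.43% in RF without its leading locus. Chromosome 2 held 8.49 ± 0.03% in RF and 11.1 ± 0.07% in PD, where its leading locus alone held 1.04%.

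Span set some loci apart. Loci spanning over 5000 bases had a median log2 fold change of -0.05, with 22.5% at least 2-fold lower in RF, beside -0.32 and 33.4% over all tested loci. For loci of over 400 and up to 1000 bases these values were -0.45 and 39.5%. Span includes introns and was taken from the coordinates. Leading loci were shorter than most, with a median span of 1587 bases for the RF leading 100 and 1278 bases for the PD leading 100, beside 2347 bases over all loci. Loci of 400 bases or less made up 7.66% of all loci and held 7.37% of the pool in RF and 8.58% in PD.

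Most loci with a net change of at least 2-fold passed the middle of that change before the last stage. Of the 3131 loci at least 2-fold higher in RF, 32.1% had passed the middle of their net log2 change by SW, 27.8% first did so at BW, 25.5% at CT and 14.7% only at RF. Of the 5539 loci at least 2-fold lower, 30.3% had passed it by SW, 34.8% first did so at BW, 29.6% at CT and 5.4% only at RF. Means fell at each of the 4 steps between these 5 stages for 2044 of the lower loci and rose at each for 890 of the higher ones. These counts share their end points with the comparison and carry no test.

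**Figure D5:**
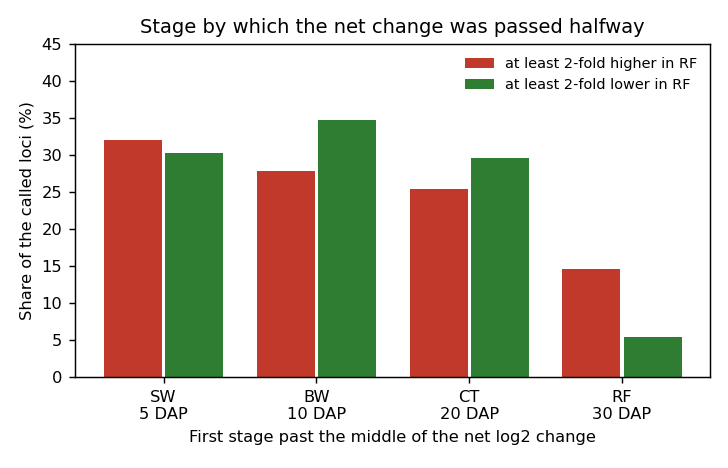
Share (%) of the loci at least 2-fold higher in RF (red) and at least 2-fold lower in RF (green) by the first stage, in order of age, whose mean lay past the middle of the net log2 change between 0 and 30 DAP. RF was the first such stage for 14.7% of the higher loci and 5.4% of the lower loci.

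The end points hid part of the change. Among the tested loci with a net change under 2-fold, 382 (4.84%) had stage means that spanned at least 4-fold. In 245 of them an intermediate stage was at least 2-fold above both ends, and in 138 an intermediate stage was at least 2-fold below both. Among the loci with a net rise of at least 2-fold, 186 were at least 2-fold higher at an intermediate stage than in RF. Among those with a net fall, 328 were at least 2-fold higher at an intermediate stage than in PD.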

How the data were processed

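RNA-seq levels were taken from the deposited tables, 1 per library. Per the file headers the values are FPKM per locus as computed by the authors. Tools listed in the submitters' processing notes are HISAT2, fastp and SAMtools 1.5. For the quantifier and the annotation, no name is given in the sources used here. Per the labels' protocols RNA was extracted with Trizol and treated with DNase I. FPKM hold no read totals, so no counting interval is given.

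In PD replicate 3 a stray record for chr5:35523256-35526568 (25.3 FPKM, with bounds of 22.8 and 27.7) showed the values to sit 1 row too high from there on. These 11643 values were moved down, which raised their correlation with PD replicate 1 to 0.993, against 0.119 as deposited, and left 1 locus without a value in that library. AP libraries entered only summaries per library, since values of AP replicates 1 and 2 do not follow the loci. In CT replicate 1, 50 loci on chromosome 1 were left out (correlation with CT libraries 0.708, under a limit of 0.8).

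The test was limma (version 3.58.1, R 4.3.3, with trend and robust options) on log2(FPKM + 1) over the 6 RF and PD libraries, with 4 residual degrees of freedom, Benjamini-Hochberg adjustment over 16598 loci and a threshold of 0.05. The scale understates changes of low loci. The procedure was tested on simulated data with 200 changed loci. That is far fewer than were called here, so the simulation does not cover a change at most loci or the scaling of the libraries. No library was a copy of another of its group, since 99.99% or more of the loci had unequal values. Named were the 2 loci with the largest rise and fall (at least 10 FPKM in the higher group, libraries not overlapping), 1 each way listed at 0, the 5 highest of each group and the 2 highest in both. Members and lists were chosen with earlier results of these data known. Same-numbered RF and PD libraries did not deviate together.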

Additional observations from a re-analysis of the deposited data

How the results depend on the processing

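Across the 13 named loci, 195 of the 200 single values kept their direction and their side of the threshold. Under every alternative that covered them, 12 of the 13 loci did so. The exception was chr5:5830958-5832520, whose log2 fold change under median-of-ratios scaling was 0.20 (limma adjusted p = 0.00057), 0.20 also with a replicate block added, and 0.0098 with sums set equal without the 100 highest loci. Leaving out the moved part of PD replicate 3 left 7992 loci to test, with 2865 higher and 4327 lower, 1455 and 2739 by at least 2-fold. Named loci inside that part have no value under this alternative, but were fitted without PD replicate 3. The named loci were chosen for large changes or high levels, so their stability is in part built in. The median log2 fold change of -0.32 was -0.35 at a pseudocount of 0.1, -0.21 without a filter, -0.050 under median-of-ratios scaling (-0.050 also with the block), -0.23 with sums set equal and -0.34 without the moved part. It was -0.32 to -0.31 with 1 library left out. The share of the single highest locus was larger in RF except when FPKM was multiplied by span, where it was 1.00% in RF and 1.42% in PD (difference -0.42). The other concentration measures kept their direction, with sizes that moved. Without the highest locus of each library the RF minus PD difference was 2.05 points for the top 10, -71 loci for 50% and -767 effective loci, and with FPKM multiplied by span it was 1.43 points for the top 10 and -261 loci for 50%. Without the moved part it was 2.11 points for the top 100, -42.3 loci for 50%, -593 loci for 90% and -376 effective loci. The replicate numbers did not pair the libraries (correlations of deviations -0.03, 0.01 and 0.03). With the replicate block 5995 loci were higher and 8876 lower, 3131 and 5540 by at least 2-fold. With 1 library left out these counts were 5880 to 5953 and 8781 to 8796, and 3111 to 3125 and 5504 to 5543. Leaving out 1 library gave RF minus PD differences of 2.73 to 2.86 points for the highest locus, 4.48 to 4.74 for the top 10, 4.91 to 5.13 for the top 100, 3.33 to 3.56 for the top 1000, -129 to -118 loci for 50%, -1254 to -1226 for 90%, -1171 to -1123 effective loci and 0.034 to 0.035 in Gini coefficient. The block with that scaling, and a filter of 1 FPKM in 3 libraries of 1 group, were chosen after seeing the data. Read totals are unknown, so the error of single low values is not known.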

Other observations

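Libraries labelled rind, R2 and R4, and Mock flesh held some of the same leading loci. The rind libraries name rind as their source but carry flesh as their tissue label. In these libraries values were written in another number format than in the stage libraries, so the levels are set side by side with no test. The 100 highest loci of RF held 21.2% of the pool in rind R4 at 30 DAP (n = 2), 14.8% in rind R2 at 30 DAP (n = 2) and 20.1 ± 0.55% in Mock flesh at 20 DAP (n = 3), beside 26.6% in RF. The 100 highest loci of PD held 14.96% and 15.04% of the pool in the R2 libraries, 10.2% in R4 and 7.12 ± 0.27% in Mock, beside 9.41% in RF and 21.6% in PD. R2 thus held about as much of its pool in the leaders of the youngest stage as in those of ripe flesh.

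At chr6:7824799-7825077, a PD leader that was low in flesh by 5 DAP, the mean was 34275 FPKM in R2 and 3082 FPKM in R4 of 30 DAP, beside 49.2 FPKM in RF and 4550 FPKM in PD. The 4 loci of chr9:6696701-6718620 summed to 4.01 FPKM in R2, 1071 FPKM in R4 and 3083 FPKM in Mock flesh, beside 1580 FPKM in RF. The locus at chr5:7789664-7791009 was at 7.85 FPKM in R2, 2912 FPKM in R4 and 5446 FPKM in Mock flesh, beside 3570 FPKM in RF. At chr8:4243307-4243756, the leader of the RF pool, R2 was not set apart in this way, with 10427 FPKM in R2, 18035 FPKM in R4 and 7708 FPKM in Mock flesh, beside 30735 FPKM in RF.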
